A study of Mus musculus with 4 samples.

Results

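The genes described here are 36 interferon-stimulated genes of the mouse, listed by symbol and read by that symbol from 4 single-cell libraries of hair follicle mesenchyme. Of these, 35 had a row in the gene tables of all 4 libraries, and Mx2 was not analysed here. The rule that lists them uses symbols and no measured value. By role they were 5 genes of signalling and transcription (Irf1, Irf7, Irf9, Stat2, Usp18), 4 sensors of foreign nucleic acid (Ifih1, Ddx58, Dhx58, Zbp1), 12 antiviral effectors (Isg15, Ifit1, Ifit2, Ifit3, Bst2, Rsad2, Oas1a, Oas2, Oas3, Oasl2, Mx1, Mx2), 6 other induced genes (Ifi27l2a, Ifi35, Ifi44, Rtp4, Xaf1, Parp14), 6 immunity GTPases (Gbp2, Gbp3, Gbp7, Iigp1, Igtp, Irgm1) and 3 genes of antigen processing (Psmb8, Psmb9, Tap1).

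The study asked how mesenchymal cells of the hair follicle change with age. The older groups were 1 library from mice of 18 months and 1 from mice of 12 months, and the younger group was 2 libraries from mice of 2 months. Version 2 of the 10x chemistry was used for the 18-month library and one 2-month library, whose mice carried a YFP reporter per the labels. Version 3 was used for the 12-month library and the other 2-month library, whose mice carried TdTomato per the labels. All mice were on the C57BL/6J background and carried α-SMACreERT2, a Cre recombinase under the promoter of α-smooth muscle actin that acts only after tamoxifen. All had received 1 mg of 4-hydroxytamoxifen on postnatal days 3 and 4, so that the reporter marks the dermal sheath and other cells with an active actin promoter in the newborn, together with their descendants. Each sample came from 2 mice, and 10000 dermal cells of back skin were sorted per sample, in equal parts reporter-positive and Cd26-positive, each also positive for Itga9 or Cd200.

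Interferons are secreted proteins that bind receptors on the cell surface and act through Jak kinases and Stat proteins. Type I and type III interferons assemble a complex with Stat2 and Irf9 that binds the interferon-stimulated response element (ISRE), while interferon gamma acts through the gamma-activated site (GAS). The induced genes block viral entry, translation and replication, sense viral RNA and DNA, mark intracellular pathogens with GTPases, and raise the production and transport of peptides for MHC class I. Many of them, Stat2, Irf9 and Irf7 among them, strengthen the response itself, and Usp18, a protease that removes Isg15 and binds the type I receptor, dampens it.

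The promoters are shown first, because the 2 elements belong to different arms of the pathway, though a gene can hold both or neither. In the RefSeq table of mouse promoters (build GRCm38.p6, from 250 bases before to 50 bases after each start) 26 of the 36 genes had an entry, with 30 promoters in all. The ISRE was searched on both strands as GAAA, any 2 bases and GAAA again, which reads TTTC, any 2 bases and TTTC on the other strand, and the GAS as TTCNNNGAA, which reads the same on both strands. The ISRE pattern was found in 15 of the 30 promoters (50%), against 3.44% of all 32851 promoters. The GAS pattern was found in 8 (26.7%), against 8.30% of all promoters. Each pattern was found in at least 1 promoter of a gene for 15 and 8 genes, both for 4 genes and neither for 7. A match is a match of letters in this window, not a measured binding site. The 150 bases before the start are given for 3 genes that the results turn on, chosen after their values were seen: Isg15 with 3 overlapping ISRE matches, Ifit1 with 2 separate ones and Irf1 with a GAS and no ISRE match. They read 5′ to 3′ on the strand of the gene, with the matches in capitals.
Isg15 (chr4:156200819-156200968, minus strand): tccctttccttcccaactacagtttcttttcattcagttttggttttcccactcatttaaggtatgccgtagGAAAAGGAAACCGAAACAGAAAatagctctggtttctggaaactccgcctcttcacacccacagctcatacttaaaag
Ifit1 (chr19:34640739-34640888, plus strand): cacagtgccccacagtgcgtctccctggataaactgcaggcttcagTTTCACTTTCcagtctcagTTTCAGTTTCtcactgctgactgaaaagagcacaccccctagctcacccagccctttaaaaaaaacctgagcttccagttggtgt
Irf1 (chr11:53769864-53770013, plus strand): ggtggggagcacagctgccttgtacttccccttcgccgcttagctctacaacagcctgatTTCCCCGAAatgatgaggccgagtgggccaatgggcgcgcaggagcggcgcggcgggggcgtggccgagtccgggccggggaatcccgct

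**Figure D1:**
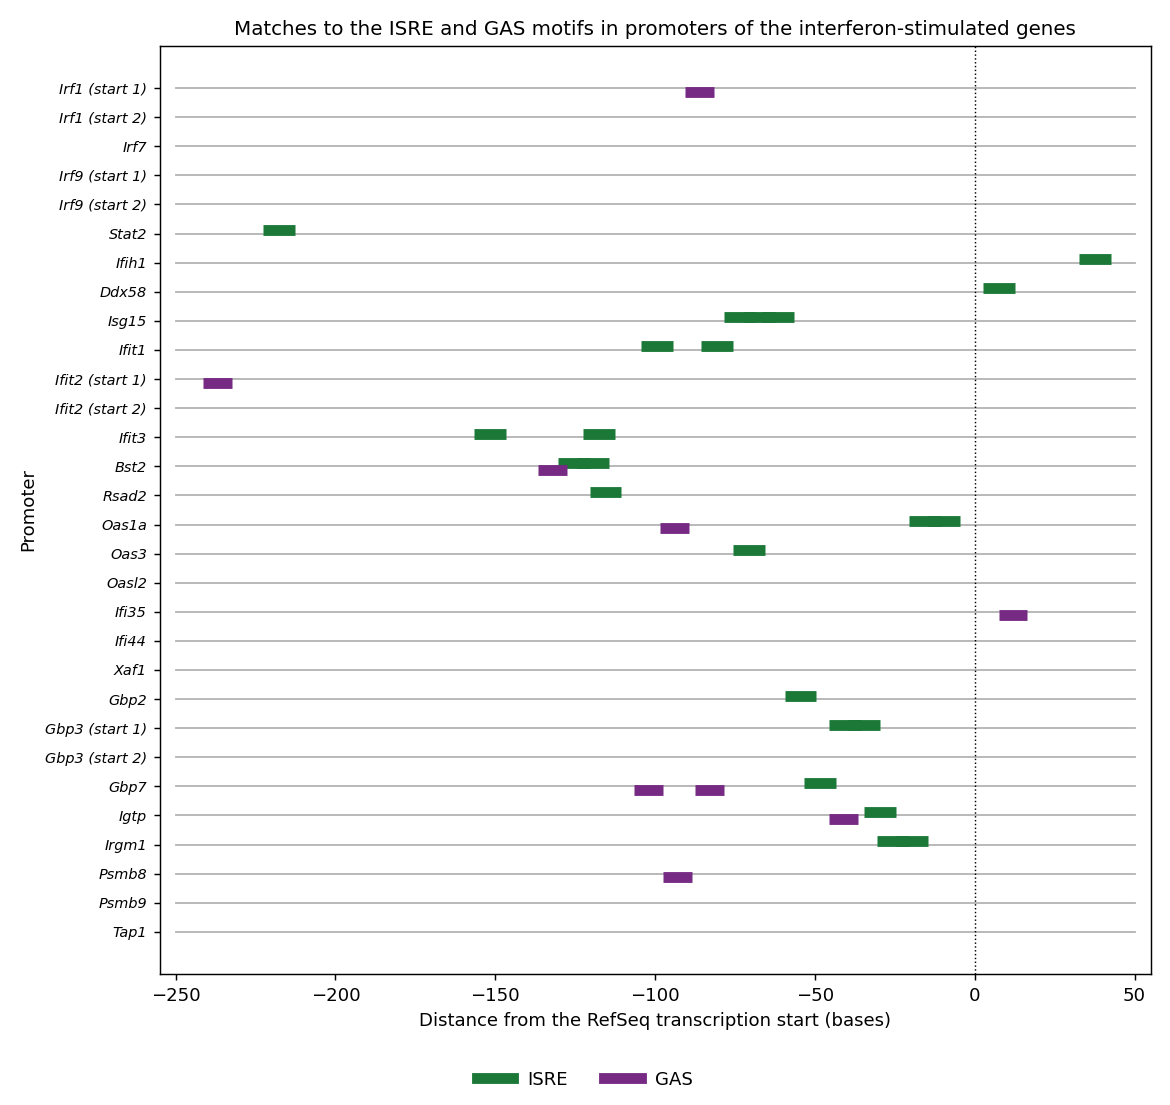
Positions of ISRE and GAS matches in the promoters of the interferon-stimulated genes with a RefSeq entry, as distance from the transcription start in bases. The 3 ISRE matches of Isg15 lie between -78 and -57, and promoters with no bar hold neither pattern.

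Isg15, Ifit1, Irf1 and Ifi27l2a lie on different chromosomes, while other genes of the list are close neighbours. Ifit2 and Ifit3, for example, lie beside Ifit1 on chromosome 19. In the GENCODE annotation of GRCm38, Isg15 (ENSMUSG00000035692), a ubiquitin-like modifier, spans 156199424 to 156200818 on the minus strand of chromosome 4. Ifit1 (ENSMUSG00000034459), which binds viral RNA and blocks its translation, spans 34640871 to 34650009 on the plus strand of chromosome 19, so the last bases of its printed window lie inside the gene in that annotation. Irf1 (ENSMUSG00000018899), a transcription factor of the interferon gamma response that growth signals and stress also induce, spans 53770014 to 53778374 on the plus strand of chromosome 11. Ifi27l2a (ENSMUSG00000079017), a small membrane protein gene strongly induced by type I interferon, spans 103442167 to 103443680 on the minus strand of chromosome 12 and had no entry in the promoter table. Psmb9 and Tap1, whose products cut peptides for MHC class I and carry them into the endoplasmic reticulum, overlap at their starts on opposite strands.

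The deposited files held 17130 cell barcodes with 171343515 unique molecular identifiers (UMIs, 1 per captured RNA molecule), from 17831300 to 77032628 UMIs per library. The sample labels state 3776 recovered cells for the 18-month and 2604 for the 2-month sample of version 2, against 2727 and 1906 barcodes in their files, and 5415 and 6998 for version 3, against 5474 and 7023. The design text gives 1906 cells to its second sample, while the file with 1906 barcodes is that of the first sample, labelled 2 months, so the direction of every version 2 comparison rests on the deposited assignment of these 2 files. The version 2 pair kept 2431 cells of 18-month and 1677 cells of 2-month mice after filtering, with a median of 6588 and 6260 UMIs. The version 3 pair kept 3964 cells of 12-month and 5388 cells of 2-month mice, with a median of 11786.5 and 11934 UMIs. The 2 libraries of the version 2 pair shared 7 barcodes and those of the version 3 pair 84. Levels are given as CPM, the summed UMIs of a gene in the cells of a class scaled to the same total for every class and library. Reads of eYFP reached 2934 and 1165 CPM in the version 2 pair and 1631 and 1626 CPM in the version 3 pair, which goes against the TdTomato label of the version 3 libraries. The RNA of Xist, made by the inactive X chromosome, stood at 0.104 and 0 CPM in the version 2 pair against 849 and 831 CPM in the version 3 pair, so sex went with chemistry and ages were compared within a chemistry. Within a chemistry there is 1 library at each age and no test, and the 95% intervals of ratios and shares cover counting error only. Tests used all 4 libraries, setting both older libraries against the pair of 2-month libraries with chemistry as a covariate (edgeR's quasi-likelihood F-test, Benjamini-Hochberg adjustment over all genes tested, called under 0.05). They leave 1 residual degree of freedom, so edgeR takes the spread of a gene largely from a pool of all genes tested. Their p-values measure only this pooled spread between these libraries, which may be technical, since no label names separate litters. A small p-value therefore does not measure how alike the pairs are for that gene. The design text once counts the 12-month mice as young, and every call given below was lost with that grouping, as it was without the chemistry term.

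Classes of cells were taken from 22 clusters made without the interferon genes and are called -like where marker genes gave the name. The dermal sheath is a contractile cup that wraps the follicle. Cells of this kind numbered 297 and 230 in the version 2 pair and 1383 and 1858 in the version 3 pair, older mice first in each pair here and below. The dermal papilla instructs hair growth from inside the bulb, and papilla-like cells numbered 471 and 517, and 411 and 1120. Dermal fibroblast-like cells numbered 700 and 207, and 696 and 360, and keratinocyte-like cells 113 and 244, and 166 and 243. A cluster led by Il1b and Ccr7 held 302 and 91, and 336 and 123 cells. It carried Cd74 in 89.4% to 100% of cells and Cd209a in 56.9% to 83.5% of cells, but a T cell marker (Il7r) stood among its 10 leading genes, so it is called by its leading genes. Macrophage and dendritic-like cells, a cluster led by Pf4 and the C1q genes, numbered 67 and 17, and 416 and 552, too few in the version 2 pair for a test.

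The interferon-stimulated genes were read at very different levels in these classes. Of the 35 genes, 19 had their highest mean CPM over the 4 libraries in dermal fibroblast-like cells, 12 in the Il1b and Ccr7 cluster, 3 in dermal papilla-like cells (Irf1, Dhx58, Irgm1) and 1 in keratinocyte-like cells (Tap1). Set against these, 25 of the 35 were higher still in macrophage and dendritic-like cells in both version 3 libraries. For 15 genes the leading class was above the next in every library. For Oas3, Gbp7, Iigp1, Psmb8 and Psmb9 the ranges of these 2 classes over the libraries did not overlap.

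Isg15 averaged 126 CPM in the Il1b and Ccr7 cluster (74.8 to 228 over the 4 libraries), 42.6 CPM in fibroblast-like cells (24.6 to 75.4), 20.7 CPM in sheath-like cells (7.24 to 34.6), 10.6 CPM in papilla-like cells (5.57 to 15.1) and 4.98 CPM in keratinocyte-like cells (0.807 to 10.7). Each class overlapped with its neighbour in this order. Of the small classes outside it, pericyte-like cells had Isg15 at 133 to 572 CPM and blood endothelium-like cells at 137 to 300 CPM. Cycling cells had it at 6.16 to 83.8 CPM and arrector pili-like cells at 5.01 to 24.9 CPM. Psmb8, an immunoproteasome subunit, averaged 243 CPM in the Il1b and Ccr7 cluster (191 to 277) and 114 CPM in fibroblast-like cells (97.9 to 144), and then 67.7 CPM in papilla-like, 40.2 CPM in sheath-like and 36 CPM in keratinocyte-like cells. Iigp1, a GTPase that coats the vacuoles of intracellular parasites, was highest of the 5 tested classes in fibroblast-like cells at 15.9 CPM (10.5 to 29.4), with 1.37 CPM in sheath-like cells as the next (0.587 to 1.86). The small classes of blood endothelium-like cells, at 98.4 to 860 CPM, and pericyte-like cells, at 43.8 to 150 CPM, lay above it. Irf1 had its highest mean of the 5 tested classes in papilla-like cells. Its range there, 10.9 to 375 CPM, took in the ranges of the 4 other tested classes except the lowest value of keratinocyte-like cells, 5.49 CPM. Among the small classes it was at 181 to 350 CPM in blood endothelium-like and 86.2 to 367 CPM in pericyte-like cells. The ranges were 9.65 to 696 CPM in arrector pili-like and 12.6 to 173 CPM in cycling cells.

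**Figure D2:**
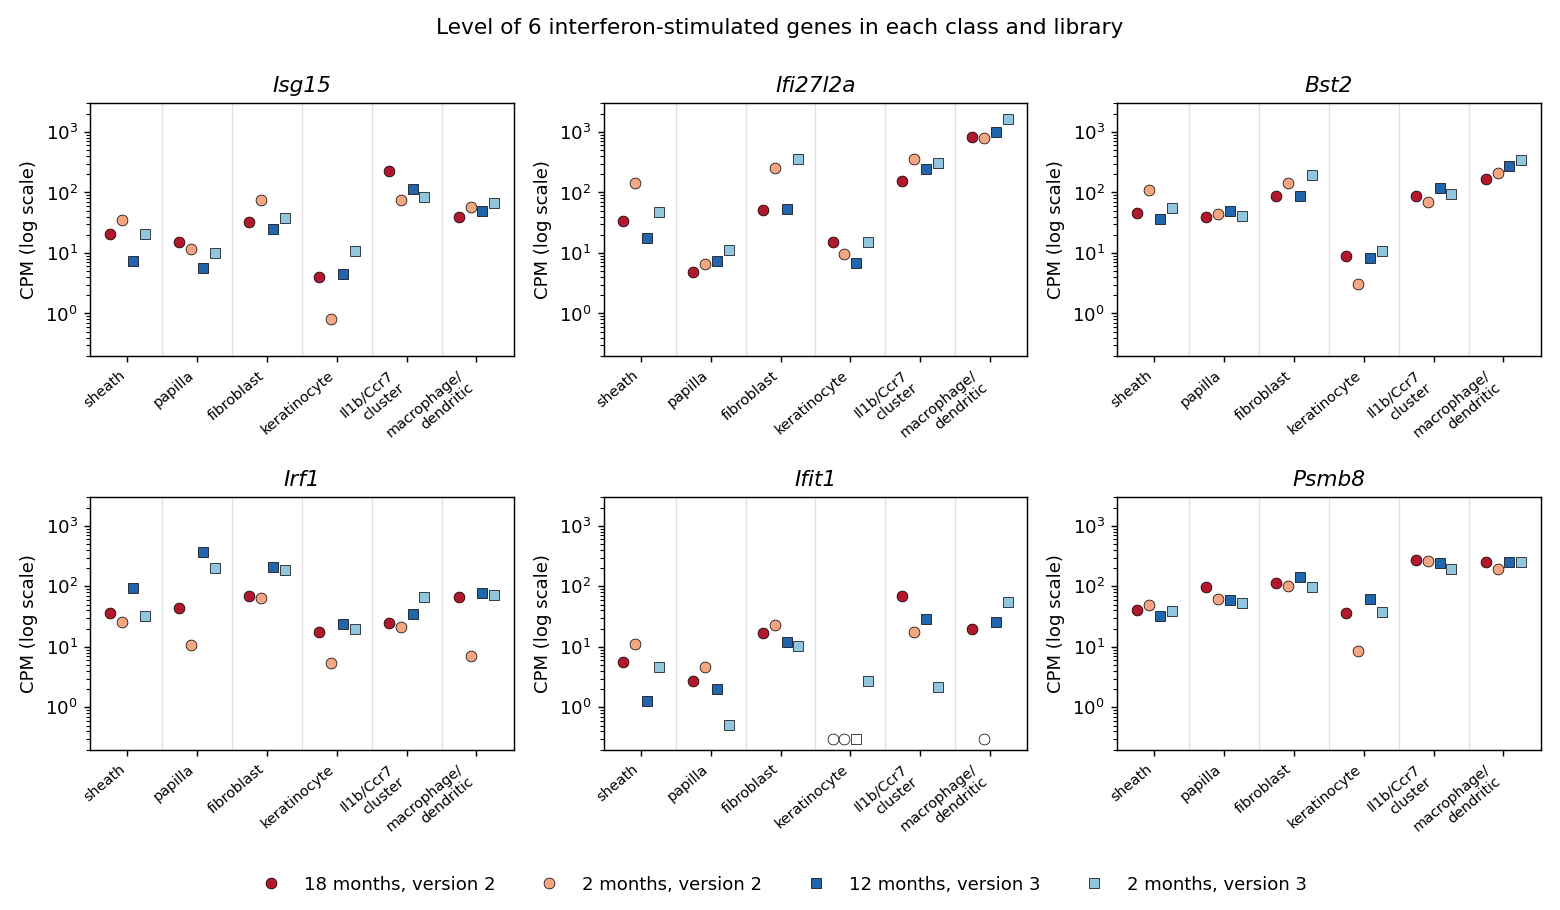
Level of 6 interferon-stimulated genes in CPM on a log scale in each class, with 1 symbol per library and open symbols at the bottom for 0 UMIs. Isg15 ran from 74.8 to 228 CPM in the Il1b and Ccr7 cluster and from 0.807 to 10.7 CPM in keratinocyte-like cells.

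Over all kept cells none of the 35 genes was called between older and 2-month libraries, and neither was any other gene (0% of 15458). At an unadjusted p under 0.05 edgeR counted 7 of the 35 genes and 1698 genes in all, and DESeq2 called none of the 35 genes and 386 genes in all. The 35 genes had a median log2 fold of -0.06, with 17 above and 18 below 0, against a median of -0.00161 over all genes. The 8 genes with the highest mean level were Ifi27l2a, Irf1, Psmb8, Bst2, Isg15, Ifi35, Psmb9 and Xaf1.

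Irf1 was at 56.5 CPM at 18 months against 23.2 CPM at 2 months, and at 150 CPM at 12 months against 105 CPM at 2 months. Psmb8 was at 108 CPM against 56.6 CPM, and at 85.8 CPM against 62.4 CPM, in the same order. Ifi27l2a was at 66.2 CPM against 89.3 CPM, and at 88.8 CPM against 157 CPM. The older library was thus above its 2-month library in both pairs for Irf1 and Psmb8 and below it for Ifi27l2a. The groups overlapped for Irf1 and not for the other genes, narrowly so for Ifi27l2a, and the adjusted p values were 0.331 for Irf1, 0.334 for Psmb8 and 0.362 for Ifi27l2a (edgeR). Isg15 was at 61.4 CPM against 32.8 CPM in version 2, and at 23.6 CPM against 25.7 CPM in version 3. Bst2, which tethers budding virus to the cell, was at 65.2 against 60.1 CPM and at 64.9 against 79.3 CPM. The pairs differed in direction for both. Ifi35, a regulator of the sensor Ddx58, was at 30.5 against 35.0 CPM and at 21.2 against 25.7 CPM. Psmb9 was at 31.3 against 18.6 CPM and at 20.3 against 17.2 CPM, and Xaf1, which promotes cell death, at 22.6 against 17 CPM and at 18.7 against 17.8 CPM. Sums over all cells mix the classes, whose shares differ between libraries: the macrophage marker list summed to 11741 CPM at 18 months against 3873 CPM at 2 months, and to 7571 CPM at 12 months against 4385 CPM at 2 months.

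In dermal sheath-like cells, as clustered here, most of the interferon-stimulated genes were lower in the older libraries, above all the antiviral effectors, while Irf1 was higher in both pairs. The pattern depended on the clustering: with doublets kept and the cells clustered again, 9 of 25 genes tested were above and 16 below 0, with a median log2 fold of -0.01, against 2 above and 28 below 0 of 30 and a median of -0.36 here. The class then held 423 cells of 18-month and 261 of 2-month mice in version 2, and 447 of 12-month and 2283 of 2-month mice in version 3. The 11 effectors with a row summed to 86.2 CPM at 18 months against 187 CPM at 2 months, and to 58.3 CPM at 12 months against 99 CPM at 2 months. Of the 22 genes with at least 20 UMIs over the libraries of each pair, 20 were lower in both pairs and only Irf1 was higher in both. Their counts by pair were 21 of 22 lower at 18 months (7 with an interval below 1) and 29 of 31 lower at 12 months (16 with an interval below 1). The median log2 ratios were -0.71 and -0.35, against -0.06 and -0.05 over all genes. Markers of other cell types moved in the class too. The papilla list summed to 955 against 2376 CPM in version 2, with 20 of its 20 genes lower, and to 995 against 1129 CPM in version 3, with 16 of 20 lower. The keratinocyte list summed to 471 against 1028 CPM, with 11 of 17 lower, and to 219 against 382 CPM, with 15 of 17 lower. Their part in these values was not tested.

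One gene, Ifi27l2a, passed the test in sheath-like cells, of 30 tested, beside 0.271% of all genes called (0.181% higher and 0.0904% lower). The 5 genes under the filter on low counts were Rsad2, Oas1a, Oas3, Mx1 and Ifi44. Ifi27l2a was at 33.8 CPM at 18 months against 144 CPM at 2 months, and at 17.4 CPM at 12 months against 47.0 CPM at 2 months. Both older libraries were below both 2-month libraries, with ratios of 0.235 (0.183 to 0.300) and 0.370 (0.328 to 0.417). It fell by 1.66 on the log2 scale (SE 0.18, adjusted p = 0.0154, edgeR). The call was lost when doublets were kept and the cells clustered again (adjusted p = 0.534, edgeR, within a range of 7.64e-13 to 1 over 9 alternatives). The share of sheath-like cells with at least 1 UMI of it, after thinning every cell to 2000 UMIs, was 5.39% at 18 months (3.11% to 8.60%) against 18.3% at 2 months (13.5% to 23.9%), and 2.68% at 12 months against 8.65% at 2 months. Without thinning the shares were 13.1% against 31.7%, and 14.2% against 27.7%. In keratinocyte-like cells, a class with little of the gene, it was found in 6.15% to 16.9% of cells at depths of 15510 to 26953 UMIs per cell, against 6717 to 14650 UMIs per cell in sheath-like cells.

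The other effectors of sheath-like cells did not pass the test. Isg15 was at 20.4 CPM at 18 months against 34.6 CPM at 2 months, and at 7.24 CPM at 12 months against 20.5 CPM at 2 months, ratios of 0.590 (0.401 to 0.867) and 0.352 (0.292 to 0.423). The 18-month library stood just under the 2-month library of version 3, so the groups touch without overlapping. The adjusted p of Isg15 was 0.108 (log2 fold -1.17, edgeR), and its log2 fold was -0.05 when doublets were kept and the cells clustered again. Usp18 had 2 UMIs at 18 months against 12 at 2 months, and 5 at 12 months against 54 at 2 months, with ratios of 0.106 (0.0115 to 0.474) and 0.125 (0.0389 to 0.309). It missed the threshold as well (log2 fold -3.00, adjusted p = 0.0986, edgeR).

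Oasl2, an oligoadenylate synthetase-like protein, was at 5.58 against 18.2 CPM in version 2 and at 4.06 against 8.18 CPM in version 3, 18 and 12 months first. Bst2 was at 46.5 against 109 CPM and at 37.1 against 54.6 CPM. Zbp1, a sensor that starts necroptosis, was at 2.97 against 8.22 CPM and at 1.12 against 2.14 CPM. Both older libraries were below both 2-month libraries for Oasl2 and Bst2, while the groups overlapped for Zbp1, and the adjusted p values were 0.184, 0.173 and 0.605 (edgeR). The immunity GTPases and antigen processing genes were closer to their 2-month level. Their median log2 ratios in sheath-like cells were -0.42 and -0.66 at 18 months and -0.31 and -0.24 at 12 months, against -1.23 and -0.89 for the effectors.

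Irf1 ran the other way in sheath-like cells. It was at 35.7 CPM at 18 months against 25.8 CPM at 2 months, a ratio of 1.38 (0.957 to 2.02), and at 95.4 CPM at 12 months against 32.6 CPM at 2 months, a ratio of 2.92 (2.70 to 3.17). Both older libraries were above both 2-month libraries, and the adjusted p was 0.0979 (log2 fold 1.25, edgeR). Genes of the early response to stress and dissociation, a list of 20 with Fos, Jun and Egr1 among them, summed to 4695 CPM at 18 months against 4478 CPM at 2 months, and to 9531 CPM at 12 months against 3931 CPM at 2 months in these cells; their part in the Irf1 values was not tested. The sheath-like cells of the 2 chemistries lay in different clusters, and so did those of the 12-month and 2-month libraries of version 3. The 12-month cells were almost all in 1 cluster (1359 of 1383) and the 2-month cells in 2 others (1343 and 489 of 1858). In version 2, 242 of the 18-month and 210 of the 2-month cells shared 1 cluster. Within it Ifi27l2a was at 28.5 against 146 CPM and Isg15 at 19.3 against 36.8 CPM. Clustering at a finer resolution set the ages of version 2 apart as well. An unnamed cluster led by Ednrb and Kank4 then held 212 cells at 18 months and 1 at 2 months. A sheath-like cluster led by Stmn2 held 4 and 236. The part of sheath subtypes in the Ifi27l2a and Isg15 values was not tested.

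**Figure D3:**
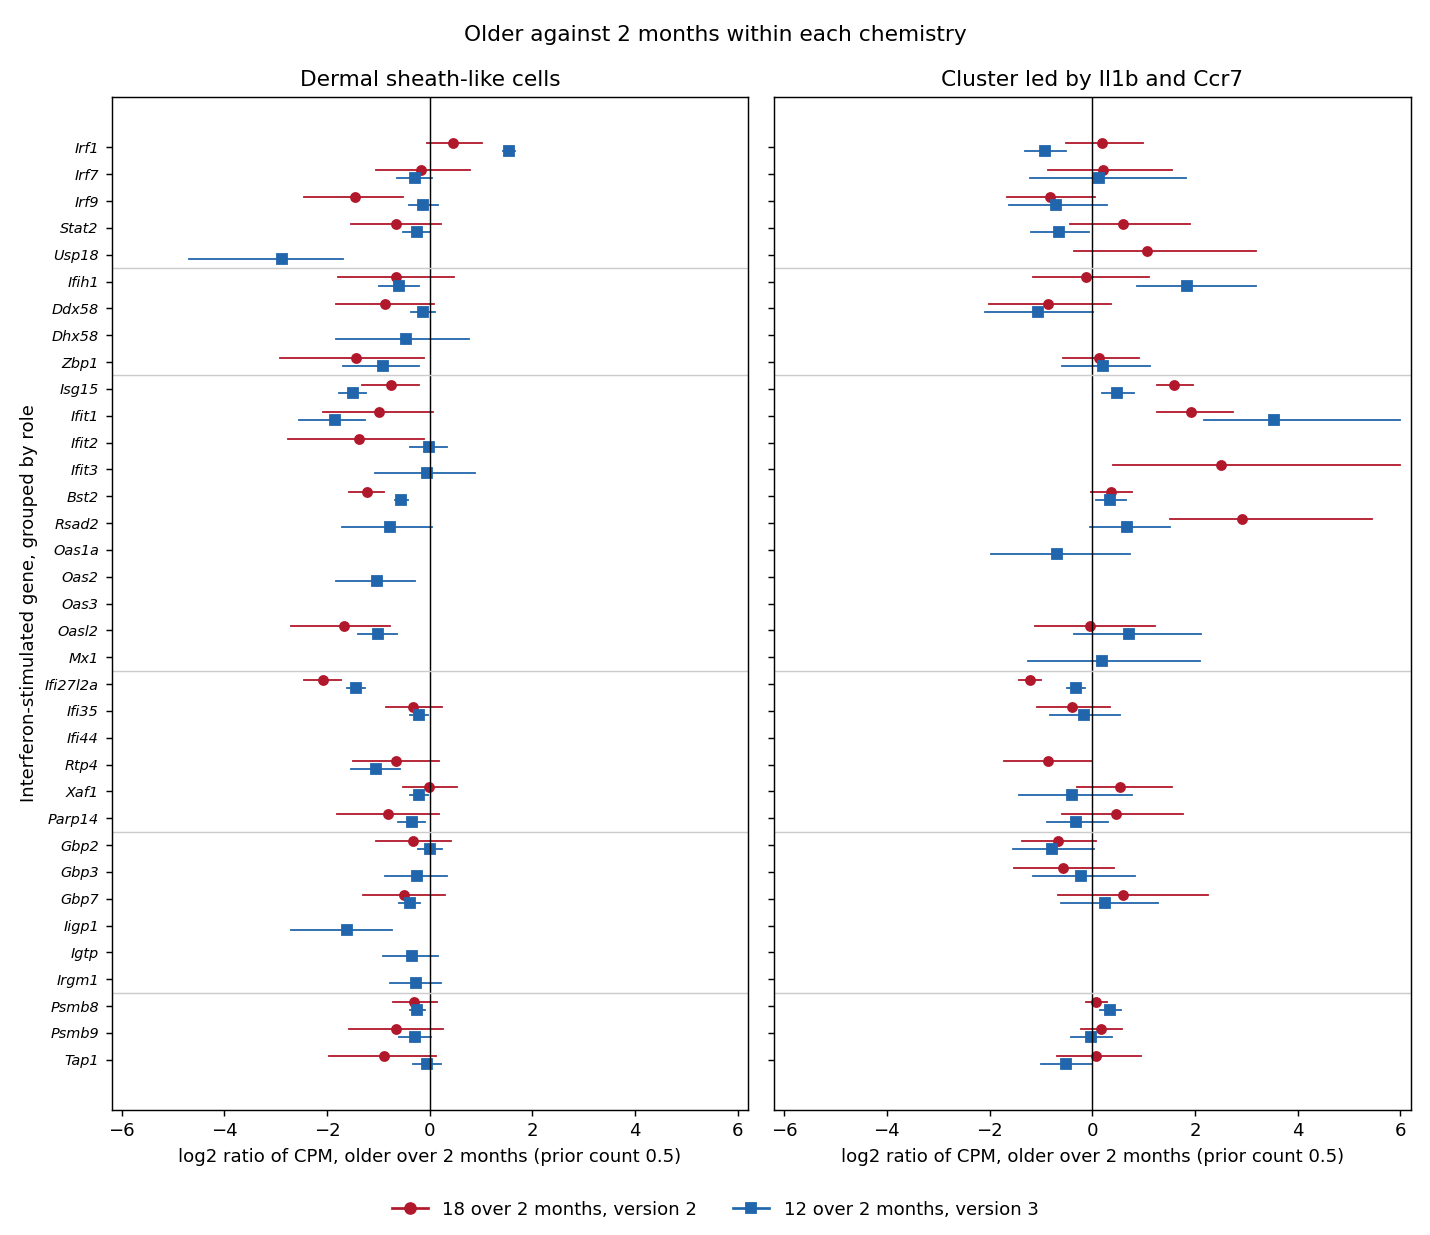
log2 ratio of CPM, older over 2 months, for each interferon-stimulated gene with at least 20 UMIs in a pair. Sheath-like cells and the Il1b and Ccr7 cluster are shown, with circles for 18 over 2 months and squares for 12 over 2 months. Lines are 95% counting intervals drawn to at most 6 on either side; in sheath-like cells 21 of 22 circles and 29 of 31 squares lie below 0.

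Dermal fibroblast-like cells shared the lower Ifi27l2a. It was at 50.7 CPM at 18 months against 258 CPM at 2 months, and at 52.9 CPM at 12 months against 359 CPM at 2 months. The 2 older libraries lay close together and far below both 2-month libraries, with ratios of 0.197 (0.168 to 0.230) and 0.147 (0.132 to 0.163). It fell by 2.50 on the log2 scale (SE 0.18, adjusted p = 0.0390, edgeR) and was the only one called of 30 tested, beside 0.0606% of all genes (0.0433% higher and 0.0173% lower). With RLE size factors the call was lost (adjusted p = 0.0661, edgeR, within a range of 3.85e-16 to 1 over 11 alternatives). The macrophage marker list summed to 798 CPM at 18 months against 840 CPM at 2 months, and to 530 CPM at 12 months against 4708 CPM at 2 months in these cells. Without the fibroblast-like cluster that carried macrophage RNA, a choice made after seeing the data, the log2 fold of Ifi27l2a was -1.72 and still called. In the fibroblast-like cluster led by Cxcl12 and Tek it was at 34.3 against 197 CPM and at 33.7 against 89.4 CPM, older first.

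Among other fibroblast-like values, the antiviral effectors with at least 20 UMIs were lower in 6 of 6 cases at 18 months and in 7 of 8 at 12 months. The GTPases were higher in 4 and lower in 2 cases at 18 months (median log2 ratio 0.30), and higher in 2 and lower in 4 at 12 months (median -0.36). Isg15 was at 32.6 CPM at 18 months against 75.4 CPM at 2 months, and at 24.6 CPM at 12 months against 37.8 CPM at 2 months. Bst2 was at 88.3 against 142 CPM, and at 87.5 against 197 CPM. The older libraries were below both 2-month libraries for each, yet the adjusted p values were 0.272 and 0.214 (edgeR). Gbp2, a guanylate-binding GTPase, was at 43.4 against 16.7 CPM and at 42.4 against 32.9 CPM, and Psmb8 at 114 against 100 CPM and at 144 against 97.9 CPM, with adjusted p values of 0.442 and 0.531 (edgeR). Over the 30 genes tested 7 were above and 23 below 0, with a median log2 fold of -0.24 against -0.01 over all genes. Without the cluster that carried macrophage RNA 12 were above and 17 below 0, with a median of -0.13. The clusters of the class were unevenly filled in version 3, where 1 of them, led by Angptl1, held 480 of 696 cells at 12 months and 55 of 360 at 2 months.

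In dermal papilla-like cells Irf1 rose and the effectors stayed low. Irf1 was at 43.7 CPM at 18 months against 10.9 CPM at 2 months, a ratio of 4.00 (2.68 to 6.13), and at 375 CPM at 12 months against 200 CPM at 2 months, a ratio of 1.87 (1.76 to 2.00). The older library was the higher one in each pair, while version 3 libraries lay above version 2 libraries at every age. The rise was 1.28 on the log2 scale (SE 0.19, adjusted p = 7.21e-09, edgeR). It was the only interferon-stimulated gene called of 24 tested, beside 3.55% of all genes (2.39% higher and 1.15% lower). Without either version 3 library the log2 fold was 1.98, and without either version 2 library it was 0.98. Irf1 was found in 5.10% of papilla-like cells at 18 months (3.29% to 7.49%) against 1.74% at 2 months (0.80% to 3.28%), and in 43.0% at 12 months (38.2% to 48.0%) against 18.8% at 2 months (16.5% to 21.2%), at 2000 UMIs per cell. Without thinning the shares were 14.4% against 5.42%, and 69.8% against 41.2%. In the papilla-like cluster that held 418 of the 471 cells at 18 months and 514 of the 517 at 2 months in version 2, Irf1 was at 28.5 against 11.1 CPM. At the finer resolution a papilla-like cluster led by Sostdc1 held 354 cells at 18 months and 175 at 2 months in version 2. Another, led by Creg2, held 29 and 346. Their part in the Irf1 values was not tested.

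The early response list moved with Irf1 in these cells, with 19 of its 20 genes called higher. It summed to 10408 CPM at 18 months against 2661 CPM at 2 months, and to 35782 CPM at 12 months against 27402 CPM at 2 months. Irf1 is itself induced early in many responses, and the part of dissociation in its values was not tested. Isg15 was at 15.1 against 11.6 CPM, and at 5.57 against 9.94 CPM, so that the pairs differed in direction. The 11 effectors summed to 70.5 CPM at 18 months against 76.4 CPM at 2 months, and to 73.0 CPM at 12 months against 66.6 CPM at 2 months. Psmb8 and Psmb9 were at 97.0 against 61.3 CPM and at 31.0 against 19.7 CPM at 18 months, and at 59.0 against 53.3 CPM and at 11.4 against 11.4 CPM at 12 months, with adjusted p values of 0.291 and 0.647 (edgeR).

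When all mesenchymal clusters were summed together, an addition made after the classes had been seen, 2 of 32 genes were called beside 1.9% of all genes (1.19% higher and 0.708% lower). Irf1 was at 68.6 against 38.7 CPM and at 181 against 117 CPM, and rose by 0.81 on the log2 scale (adjusted p = 0.0451, edgeR). Ifi27l2a fell by 1.34 (adjusted p = 0.0316, edgeR). Each had the direction it had in sheath-like cells.

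In the Il1b and Ccr7 cluster the antiviral effectors were higher in the older library of both pairs. The 11 effectors summed to 442 CPM at 18 months against 188 CPM at 2 months, and to 316 CPM at 12 months against 215 CPM at 2 months. Ifit1 was at 68.1 CPM at 18 months against 17.5 CPM at 2 months (168 and 18 UMIs), and at 29.3 CPM at 12 months against 2.16 CPM at 2 months (100 and 3 UMIs). Both older libraries were above both 2-month libraries, with ratios of 3.89 (2.39 to 6.73) and 13.6 (4.51 to 66.9). Ifit1 rose by 2.82 on the log2 scale (SE 0.37, adjusted p = 0.0255, edgeR), the only one called of 24 tested, beside 1.35% of all genes (0.571% higher and 0.783% lower). Without either version 2 library its log2 fold was 3.97 to 3.98, and without either version 3 library 2.35. The call was lost when the cells were clustered at the finer resolution, with a log2 fold of 2.90 there.

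Isg15 in this cluster was at 228 CPM at 18 months against 74.8 CPM at 2 months, and at 116 CPM at 12 months against 82.7 CPM at 2 months. The groups did not overlap, the ratios were 3.05 (2.40 to 3.92) and 1.41 (1.14 to 1.75), and the adjusted p was 0.0739 (log2 fold 1.36, edgeR). Rsad2, known as viperin, which makes a nucleotide that stops viral RNA synthesis, was at 25.6 CPM at 18 months against 2.92 CPM at 2 months (63 and 3 UMIs), and at 22.3 CPM at 12 months against 13.7 CPM at 2 months (76 and 19 UMIs). Ifi27l2a went the other way, at 152 against 352 CPM and at 246 against 306 CPM, with an adjusted p of 0.358 (edgeR). Irf1 was at 24.7 against 21.4 CPM and at 35.4 against 66.9 CPM. By role, the effectors with at least 20 UMIs were higher in 6 of 6 cases at 18 months and in 6 of 7 at 12 months, while the other induced genes were higher in 2 of 5 and in 0 of 4. The median log2 ratios at 18 and 12 months were 1.76 and 0.49 for the effectors and -0.38 and -0.31 for the other induced genes. Over all genes of the cluster they were -0.39 and -0.26, so the other induced genes lay near the typical gene.

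Few cells carried these counts. The 5 cells with the most Isg15 held 45.8% of its UMIs among 302 cells at 18 months and 44.2% among 91 cells at 2 months, and 36% among 336 cells at 12 months and 47.0% among 123 cells at 2 months. Ifit1 was found in 31 cells at 18 months against 6 cells at 2 months, and in 14 cells at 12 months against 2 cells at 2 months. The 5 leading cells held 63.7% of its UMIs at 18 months and 83% at 12 months. One cell at 18 months held 122 UMIs of Isg15. The share of cells with Isg15 at 2000 UMIs per cell was 15.2% at 18 months (11.4% to 19.8%) against 11% at 2 months (5.40% to 19.3%), and 11% at 12 months (7.83% to 14.9%) against 12.0% at 2 months (6.70% to 19.3%), so that no difference in the share of cells was detectable at this depth. Without thinning the shares were 27.2% against 31.9%, and 25.9% against 28.5%. In keratinocyte-like cells the unthinned share was 1.64% to 9.64%. Without the 5% of cells with the most UMIs of the 35 genes in each library, a choice made after seeing the data, the log2 fold of Isg15 was 0.41 and that of Ifit1 was 3.03.

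Effectors were found together in the same cells. Among cells with Isg15 at 18 months, 32.6% also had Ifit1, Ifit3, Rsad2 or Usp18 (15 of 46), against 4.30% of cells without Isg15 (11 of 256). At 2 months in version 2 the shares were 10.0% (1 of 10) and 1.23% (1 of 81). At 12 months they were 22.2% (8 of 36) and 2.75% (8 of 291), and at 2 months in version 3 7.14% (1 of 14) and 0.971% (1 of 103). Cells with at least 3 of the 11 effectors made up 2.98% at 18 months (9 of 302) against 0 of 91 at 2 months, which allows a share of up to 3.30%, and 1.83% at 12 months (6 of 327) against 0.855% at 2 months (1 of 117). The intervals of each pair overlapped. Markers of subtypes moved in the cluster as well: Cd207, a Langerhans cell lectin, was at 97.7 against 23.3 CPM and at 888 against 447 CPM, and Ccr7, which guides dendritic cells to lymph nodes, at 251 against 154 CPM and at 799 against 580 CPM. The papilla list summed to 1596 against 4443 CPM and to 527 against 2243 CPM, with 20 of its 20 genes lower in both pairs. The macrophage marker list summed to 78441 against 48271 CPM and to 68756 against 53622 CPM, with 18 and 19 of its 22 genes higher. The part of these markers in the effector values was not tested.

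**Figure D4:**
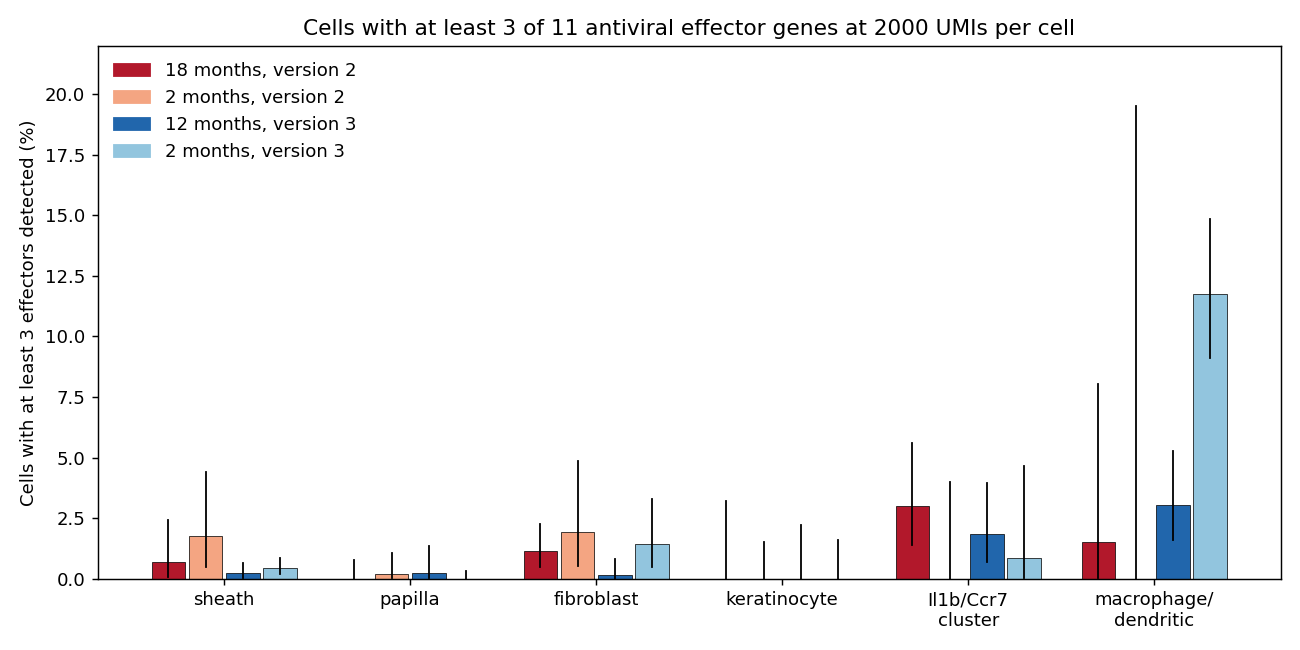
Share of cells with at least 3 of 11 antiviral effector genes in each class and library, in percent of cells thinned to 2000 UMIs, with 95% exact binomial intervals. The bar of macrophage and dendritic-like cells of 2 months in version 3, at 11.8%, is the highest, against 3.05% at 12 months.

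The difference between the age effect in sheath-like cells and that in the Il1b and Ccr7 cluster was tested in 1 model with each library as a block. Of 29 genes tested 9 were called, 8 with the lower age effect in sheath-like cells and 1, Irf1, with the higher, beside 4.01% of all genes (1.93% higher and 2.08% lower). Ifit1 differed by -4.39 on the log2 scale (adjusted p = 2.03e-17, edgeR), Isg15 by -2.46 (adjusted p = 1.40e-14, edgeR) and Bst2 by -1.53 (adjusted p = 3.93e-06, edgeR). The other genes called on this side were Ifi27l2a, Oasl2, Usp18, Psmb8 and Ifih1, a sensor of long viral RNA, with differences between -0.81 and -4.22. Irf1 differed by 1.41 (adjusted p = 0.000503, edgeR). DESeq2 called 2 genes on the lower side and none on the higher, and the counts were 4 and 0 both when doublets were kept and without the 5% of cells richest in these genes. All genes called then numbered 5, 134 and 222, in that order. Between sheath-like and papilla-like cells no gene was called (0% of 11889), with 8 of 27 interferon-stimulated genes and 654 genes in all at an unadjusted p under 0.05 by edgeR, and with none of the interferon-stimulated genes and 4 genes in all called by DESeq2.

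Macrophage and dendritic-like cells stood above the 5 tested classes in both version 3 libraries for 25 of the 35 genes. In these cells the 12-month library was below the 2-month library of the same chemistry for most effectors, sensors, signalling and other induced genes. For the GTPases and antigen processing genes it was close to the 2-month library in the median. Of the 35 genes 29 were lower at 12 months, 20 of them with a counting interval below 1, and none had an interval above 1. The median log2 ratio was -0.52, against -0.08 over all genes. All 11 effectors were lower (median -0.91), as were all 4 sensors (median -0.84), all 6 other induced genes (median -0.53) and 4 of the 5 signalling genes (median -0.92). Of the 6 GTPases 3 were higher and 3 lower (median -0.03), and of the 3 antigen processing genes 2 were higher and 1 lower (median 0.02), with no interval off 1 in these roles.

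The largest differences in these cells were those of Irf7 and Rsad2. Irf7, the factor that amplifies type I interferon production, was at 8.31 CPM at 12 months against 48.7 CPM at 2 months, a ratio of 0.171 (0.104 to 0.268). Rsad2 was at 36.4 CPM at 12 months against 183 CPM at 2 months (92 and 790 UMIs), a ratio of 0.199 (0.159 to 0.247). Ifih1 was at 32.8 against 78.3 CPM, Zbp1 at 27.3 against 63.7 CPM, Ifit1 at 25.7 against 54.7 CPM and Oas2, which starts the decay of RNA in infected cells, at 21.4 against 47.0 CPM. Isg15 was closer, at 49.1 against 67.2 CPM (0.730, 0.587 to 0.904), and Ifi27l2a was at 998 against 1610 CPM. Psmb8 at 252 against 249 CPM, Gbp7 at 96.2 against 95.7 CPM and Irf1 at 76.8 against 71.8 CPM were level within counting error.

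Here the share of cells differed too. Rsad2 was found in 4.07% of cells at 12 months (2.35% to 6.53%) against 18.3% at 2 months (15.1% to 21.9%) at 2000 UMIs per cell, which left out 23 and 33 shallower cells. Without thinning the shares were 6.97% and 27.9%, at median depths of 5492 and 7697 UMIs per cell. In papilla-like cells, a class with little of the gene, they were 0.243% and 0.625%, at 7998 and 8280 UMIs per cell. Cells with at least 3 of the 11 effectors were 3.05% at 12 months (12 of 393, 1.59% to 5.27%) against 11.8% at 2 months (61 of 519, 9.11% to 14.8%). The 5 leading cells held 65.2% of the Rsad2 UMIs at 12 months and 21.3% at 2 months. Pf4 and C1qa moved within the class, at 7620 against 4580 CPM and at 4690 against 6020 CPM, and the early response list summed to 16883 against 17199 CPM. At the finer resolution a cluster led by Retnla and Lyve1 held 21 cells at 12 months and 254 at 2 months in version 3. The cluster led by Pf4 then held 423 and 314. The part of macrophage subtypes in these values was not tested. The version 2 pair, with 67 cells at 18 months and 17 at 2 months, gave 13 genes with at least 20 UMIs, 7 higher and 6 lower, and for Rsad2 17 UMIs against 1, a ratio of 4.65 (0.729 to 194).

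**Figure D5:**
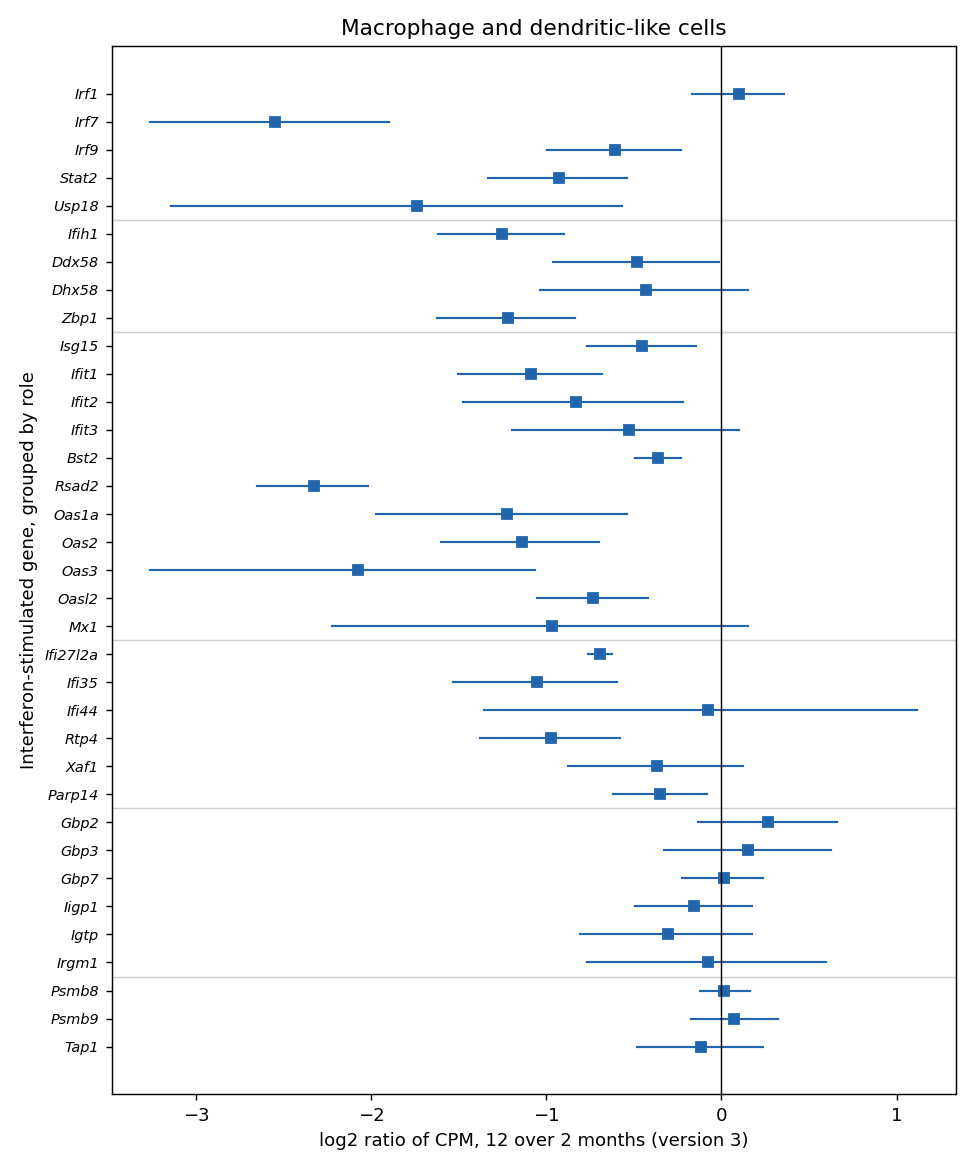
log2 ratio of CPM, 12 over 2 months, of the 35 interferon-stimulated genes in macrophage and dendritic-like cells of version 3, grouped by role, with 95% counting intervals. Rsad2 and Irf7 lie farthest below 0, while the immunity GTPases and antigen processing genes lie around 0.

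Keratinocyte-like cells, which entered the sort as a minority, had the lowest mean of the tested classes for 24 of the 35 genes. None of the 14 genes tested was called and neither was any other gene (0% of 10589), with 1 of the 14 and 428 genes in all at an unadjusted p under 0.05 by edgeR, and none of the interferon-stimulated genes and 6 in all called by DESeq2. Psmb8 was the one, at 36 CPM at 18 months against 8.39 CPM at 2 months, and at 62.0 CPM at 12 months against 37.6 CPM at 2 months, with an adjusted p of 0.960 (edgeR). The older library was above its 2-month library in both pairs, and the groups overlapped across chemistries. The clusters of the class were unevenly filled in version 2. A cluster led by Krt6b held 1 cell at 18 months and 217 at 2 months, and another led by Gm94 held 57 and 0. Their part in the Psmb8 values was not tested.

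The receptors were present and the ligands nearly absent. Of the receptor chains over all kept cells, Ifnar1 and Ifnar2 (type I) were at 17.1 to 30.1 CPM and 29.3 to 60.3 CPM, Ifngr1 and Ifngr2 (interferon gamma) at 52.4 to 89.3 CPM and 38.2 to 48.1 CPM, and Il10rb, shared by the type III receptor, at 15.7 to 28.4 CPM. The other type III chain, Ifnlr1, had 8 to 26 UMIs per library. None of them was called in any class tested. Ifnb1, the first type I interferon made on infection, had 9 UMIs at 18 months against 0 at 2 months, and 5 at 12 months against 12 at 2 months, over all kept cells. Ifng had 1 UMI in all, in the 2-month library of version 3. Such counts are too low to compare ages.

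Of the transducers, Jak1 was at 89.3 against 91.1 CPM and at 147 against 143 CPM, and Tyk2 at 5.37 against 4.23 CPM and at 5.11 against 4.88 CPM, older first. Neither was called in any class tested. Among the other interferon pathway genes (receptors, transducers, sensors, further induced genes and MHC class I), 0 of 64 tested were called in sheath-like, 0 of 70 in fibroblast-like and 0 of 56 in keratinocyte-like cells, 4 of 58 in papilla-like cells and 2 of 65 in the Il1b and Ccr7 cluster, all 6 of them higher. Over all genes tested 3.55% were called in papilla-like cells and 1.35% in the cluster.

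In papilla-like cells the 4 were Irf8, Cxcl10, Cmpk2 and H2-D1. Irf8, a factor best known from myeloid cells, was at 31.0 CPM at 18 months against 7.75 CPM at 2 months, and at 38.8 CPM at 12 months against 8.32 CPM at 2 months. Both older libraries were above both 2-month libraries, and it rose by 2.18 on the log2 scale (adjusted p = 4.03e-15, edgeR). The macrophage marker list summed to 814 against 385 CPM in version 2 and to 414 against 436 CPM in version 3 in these cells. Macrophage and dendritic-like cells had Irf8 at 91.4 against 97.8 CPM in version 3. Its part in the papilla-like values was not tested. H2-D1, a classical MHC class I chain, was at 1100 against 569 CPM and at 576 against 399 CPM (log2 fold 0.76, adjusted p = 0.00182, edgeR), Cmpk2, a mitochondrial nucleotide kinase, at 9.29 against 2.47 CPM and at 5.32 against 2.21 CPM (1.54, adjusted p = 0.0133, edgeR), and Cxcl10, a chemokine for T cells, at 1.03 against 0.352 CPM and at 32.4 against 15.6 CPM (1.14, adjusted p = 0.00872, edgeR). In the Il1b and Ccr7 cluster the 2 were Ifi205, a nuclear DNA-binding protein, at 34.5 against 11.7 CPM and at 16.1 against 6.47 CPM (1.78, adjusted p = 0.0459, edgeR), and Cxcl9, a chemokine induced by interferon gamma, at 97 against 10 UMIs and at 6 against 0 UMIs (2.50, adjusted p = 0.0489, edgeR).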

How the data were processed

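The deposited tables hold whole-number UMI counts per gene and called barcode, which the authors made from 10x 3' libraries. The submitters' processing notes name STAR, Cell Ranger 2.0.1, Seurat 2.1.0, mm10 and GRCm38.p5 without roles, and the headers of the version 3 tables name software 3.0.1. Settings of cell calling are not given in the sources used here.

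Barcodes were kept with 500 genes or more, 1000 UMIs or more and less than 10% mitochondrial UMIs. The 3% with the highest Scrublet score were then removed per library, a rate the design text estimates; Scrublet's own threshold marked 18, 7, 2 and 111 cells, so doublets remain possible. Clustering used scanpy 1.11.5, Leiden resolution 0.5, 2000 variable genes, 30 components and 15 neighbours (igraph 0.11.9, scikit-learn 1.9.0, Python 3.11.15), leaving out the interferon, early response, heat shock, sex-linked, mitochondrial and ribosomal genes. Naming required 3 or more markers from 1 of 18 lists among the top 100 genes, with a fold of 1.5 and detection in 20% of cells.

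UMIs summed per library and class were tested with edgeR 4.0.16 (R 4.3.3, TMM scaling, default low-count filter, two-sided) where every library had at least 50 cells. An SE was derived from the fold and F. DESeq2 1.42.0 was an alternative. Intervals are exact (conditional Poisson for ratios, Clopper-Pearson for shares, 95%, scipy 1.17.1). Log2 ratios of pairs used a prior count of 0.5, and a count of 0 was read as up to 3. Scripts were tested on simulated counts.

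The genes and lists were chosen with earlier results of these data known. Named genes were those called in a class, the 8 of highest mean CPM and those differing at least 1.5-fold the same way in both pairs with intervals off 1. Rsad2, Irf7, Gbp2, Gbp7, Iigp1, Ifih1 and Oas2 were added after their values were seen. The Il1b and Ccr7 cluster replaced macrophage and dendritic-like cells in the planned comparison with sheath-like cells, as that class had 17 cells in 1 library.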

Additional observations from a re-analysis of the deposited data

Results flagged for a closer look

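The age effect differed between dermal sheath-like cells and the Il1b and Ccr7 cluster, by a test of the difference itself, for 9 genes. These were 9 of 29 interferon-stimulated genes tested, beside 4.01% of all genes tested. DESeq2 called 2 interferon-stimulated genes and 5 genes in all. With doublets kept 4 were called, beside 134 genes in all. Without the 5% of cells richest in these genes 4 were called, beside 222 in all. Each value is the log2 age effect in sheath-like cells minus that in the cluster, from the UMIs of 4 libraries. The difference was -4.39 for Ifit1, -4.22 for Usp18, -2.46 for Isg15, -2.10 for Ifih1, -2.07 for Oasl2, -1.53 for Bst2, -1.32 for Ifi27l2a and -0.813 for Psmb8. For Irf1 it was 1.41, the only one above 0. Ifi27l2a was lower in the older libraries in both classes and differed in the size of the drop, while Ifit1, Isg15, Bst2 and Oasl2 were lower in sheath-like cells and above or level with the 2-month libraries in the cluster. Usp18 rests on 2 and 12, and 5 and 54 UMIs in sheath-like cells, and on 22 and 4, and 11 and 3 UMIs in the cluster, older first.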

How the results depend on the processing

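No paired analysis was possible because the older groups share fewer than 2 replicate numbers with the 2-month group in the labels; the pairs made by chemistry are already a block in the model through its chemistry term. The counts of called genes depended on the grouping of the 12-month library and on the chemistry term: with the 12-month library set with the 2-month libraries, or without chemistry, the count was 0 higher and 0 lower in every class and in the comparison of sheath-like cells with the Il1b and Ccr7 cluster, where the difference of Irf1 turned to -0.0516 under the first. With RLE size factors in place of TMM, 3 genes were called higher over the mesenchymal clusters and 3 in the Il1b and Ccr7 cluster (1 each before), and 0 lower in fibroblast-like cells (1 before); all genes called went to 703 over the mesenchymal clusters and 697 in the Il1b and Ccr7 cluster (271 and 128 before). Without the filter on low counts the counts were 3 higher over the mesenchymal clusters, 6 higher in the Il1b and Ccr7 cluster, 3 lower in fibroblast-like cells, 1 higher and 6 lower in sheath-like cells, and 1 lower between sheath-like and papilla-like cells; all 35 genes were then tested in these 4 classes, and 903, 887, 298 and 329 genes in all were called in them. Between sheath-like and papilla-like cells 144 genes in all were called without that filter. DESeq2 called 2 higher over the mesenchymal clusters (674 genes in all). Between sheath-like cells and the Il1b and Ccr7 cluster it called 0 higher and 2 lower (1 and 8 before), with 5 genes in all (453 before). Clustering at resolution 1 left 0 called in that cluster (0 genes in all) and too few sheath-like cells for a test. Without removal of doublets the counts were 2 higher in that cluster, 0 lower in sheath-like cells, and 0 higher and 4 lower between them. All genes called were then 131, 0 and 134. Cells with at least 1000 genes gave 2 higher in that cluster (260 genes in all). Classes from marker scores gave 3 higher and 3 lower in fibroblast-like cells and 1 higher in sheath-like cells. All genes called in these classes went to 631 and 129 (7 and 33 before). Macrophage and dendritic-like cells by marker scores were enough for a test, 299 and 98, and 612 and 576, older first. Of 34 interferon-stimulated genes tested there 0 were called, and 0 of all 11147 genes. At an unadjusted p under 0.05 edgeR counted 4 of the 34 and 1219 genes in all. The folds were above 0 for 11 and below 0 for 23 of the 34, with a median log2 of -0.15. Without the 5% of cells with the most UMIs of these genes, 1 was higher in sheath-like cells (113 genes in all). Between sheath-like cells and the cluster 0 were then higher and 4 lower (222 genes in all). The cause was not tested for any of these.

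The median log2 ratio of the genes kept its sign in sheath-like cells in both pairs under TMM scaling and thinning, but the median of the fitted folds there was -0.01 without doublet removal (-0.36 before). Thinning to 2000 UMIs moved it to -0.0605 over all kept cells in version 2 (0.330 before), to -0.216 and 0.115 over the mesenchymal clusters in versions 2 and 3, to -0.422 in the Il1b and Ccr7 cluster in version 3, to -0.419 in fibroblast-like cells and to 0.0737 in papilla-like cells in version 2. TMM scaling within the pair moved it to 0.0481 and 0.0422 over the mesenchymal clusters, to 0.554 and 0.162 in the Il1b and Ccr7 cluster in versions 2 and 3, and to -0.255 in fibroblast-like cells in version 2. The alternatives on the mesenchymal clusters, the comparison of classes, the 5% of cells and the cluster with macrophage RNA were chosen after seeing the data. Leaving out a library leaves 1 pair with no measured spread, so those values carry no test; without either version 2 library the log2 fold of Ifit1 in the Il1b and Ccr7 cluster was 3.97 to 3.98, and without either version 3 library it was 2.35. Depth limits the cluster, with 3 UMIs of Ifit1 at 2 months in version 3, and the untested classes, which held as few as 2 cells in a library.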

Other observations

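Ifi27l2a differed in direction between the classes with too few cells in at least 1 library for a test. In pericyte and vascular smooth muscle-like cells, 249 at 18 months and 217 at 2 months, it had 3 UMIs at 18 months against 106 at 2 months, 2.54 against 84.6 CPM, a ratio of 0.0301 (0.00610 to 0.0902). In cycling cells it was at 53.3 CPM at 18 months against 249 CPM at 2 months, a ratio of 0.214 (0.135 to 0.327), and at 46.6 CPM at 12 months against 61.7 CPM at 2 months, a ratio of 0.754 (0.537 to 1.06). In blood endothelium-like cells it had 6 UMIs at 18 months against 0 at 2 months, and was at 64 CPM at 12 months against 27.2 CPM at 2 months, a ratio of 2.35 (1.11 to 4.74). In arrector pili-like cells it had 2 UMIs at 18 months against 6 at 2 months, 18.3 against 11.6 CPM, and 0 UMIs at 12 months against 39 at 2 months. Irf1 was higher in the older library of both pairs in pericyte-like and cycling cells, at 184 against 86.2 CPM and 367 against 126 CPM in pericyte-like cells, and at 63.1 against 12.6 CPM and 173 against 79.9 CPM in cycling cells. In pericyte-like cells of version 2, 19 of 23 interferon-stimulated genes were lower at 18 months, with a median log2 ratio of -0.64 against -0.08 over all genes, while Isg15 was higher at 198 against 133 CPM (1.49, 1.21 to 1.83). In version 3, with 12 cells at 12 months and 29 at 2 months, the 3 genes with at least 20 UMIs were all higher at 12 months, among them Bst2 at 204 against 87.6 CPM, which was at 49.1 against 105 CPM in version 2.

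Blood endothelium-like cells held the highest summed level of the 35 genes among the classes other than macrophage and dendritic-like cells in version 3, at 2467 CPM in 23 cells at 12 months and 2549 CPM in 74 cells at 2 months, with Iigp1 at 359 and 356 CPM. No difference between the ages was detectable for Iigp1 at this depth (ratio 1.01, 0.773 to 1.30).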
